A study of Mus musculus with 9 samples.

Results

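The genes described here are 36 very long mouse genes, most of which encode cell-adhesion, synaptic or cell-signalling proteins, among 49603 RefSeq genes of which 21779 code for proteins. They were named by symbol, and all 36 were found in the RefSeq table of the mm10 build. Together they span 48.2 Mb on 16 autosomes, and single genes run over 860.0 to 2271 kb. They are 36 of the 87 protein-coding genes at least as long as the shortest of them. An interval here is a stretch of genome listed by the authors as enriched over input, and it was given to a gene when it overlapped the annotated span by at least 1 bp. The 36 genes held 627 of 38711 Gm4665 intervals and 149 of 9448 LacZ intervals. The name of the set does not cover every gene in it: Macrod2, Fhit, Wwox, Immp2l, Rbfox1 and Auts2 encode enzymes, a mitochondrial protease subunit or nuclear proteins, and Dab1 and Prkg1 encode intracellular signalling proteins.

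The series captured chromatin bound by the long noncoding RNA Gm4665 in male germ cells, and its stated interest was the regulatory regions of target genes. Testicular germ cells of wild-type ICR animals, taken on postnatal day 35, gave 9 libraries in 3 groups of 3: biotinylated Gm4665 probes, LacZ probes and input. All groups share strain, age and tissue, and none carries an allele or treatment. Titles alone name the LacZ and input groups, and they call the captured RNA LncRNA-20, while the extract protocol, the same text for all 9 samples, names only Gm4665 probes, also on the LacZ and input records. LacZ is a bacterial gene that mice lack, so its probes are taken here, from the titles, as the control. Whether replicates are separate animals is not stated, so errors and p-values measure the spread between libraries, which may be technical. The files hold DNA enrichment only, so the identity of the cells could not be checked against expressed markers. The read depth of the libraries is unknown here. LacZ replicate 1 stood apart in its folds, with a median of 23.0 over the LacZ list, against 8.18 and 10.9 in LacZ replicates 2 and 3.

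As background, adhesion and synaptic proteins hold neighbouring cells together and align the membranes of nerve terminals with those of the cells they contact. Neurexins on the presynaptic side bind neuroligins on the postsynaptic side, and scaffold proteins anchor receptors and channels beneath the membrane. Many genes for such proteins are very long because of large introns, and they are best known from neurons. Very long transcribed genes often replicate late, and several of them coincide with common fragile sites, where chromosomes break when replication is slowed. A long gene collects more intervals than a short gene by its size alone. Each count is therefore given per Mb of gene and set beside the density of the gene's own chromosome.

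Promoter windows, taken from 250 bases before to 50 bases after an annotated start, were available from RefSeq (GRCm38.p6, the mm10 assembly) for 28 of the 36 genes and numbered 54. No Gm4665 interval overlapped any of them, against 1.80% of all 32851 windows. A LacZ interval overlapped 1 of the 54, against 0.728% of all windows. The windows below are that window of Ntm, its neighbour, and the pair of windows nearest to a Gm4665 interval. Ntm encodes neurotrimin, a membrane-anchored immunoglobulin-domain adhesion protein. Dlg2 encodes a postsynaptic scaffold, and Nrg3 encodes a ligand of the receptor Erbb4. Each is printed from the 5′ end in lower case, with every CG dinucleotide, the usual site of DNA methylation in mammals, in capitals.
Ntm, chr9:29413403-29413702, minus strand: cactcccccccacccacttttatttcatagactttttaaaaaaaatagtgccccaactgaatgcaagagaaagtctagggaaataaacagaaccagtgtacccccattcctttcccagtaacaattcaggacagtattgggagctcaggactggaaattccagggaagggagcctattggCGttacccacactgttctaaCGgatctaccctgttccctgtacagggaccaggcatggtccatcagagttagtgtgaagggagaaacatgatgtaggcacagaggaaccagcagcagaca
Ntm, chr9:29412636-29412935, minus strand: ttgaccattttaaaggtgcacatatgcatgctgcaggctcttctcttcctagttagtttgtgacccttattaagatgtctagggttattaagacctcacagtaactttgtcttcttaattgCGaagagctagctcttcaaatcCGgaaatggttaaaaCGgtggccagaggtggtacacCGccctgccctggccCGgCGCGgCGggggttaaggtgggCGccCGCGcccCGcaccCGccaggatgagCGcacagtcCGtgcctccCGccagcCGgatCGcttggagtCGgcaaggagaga
Dlg2, chr7:92062144-92062443, plus strand: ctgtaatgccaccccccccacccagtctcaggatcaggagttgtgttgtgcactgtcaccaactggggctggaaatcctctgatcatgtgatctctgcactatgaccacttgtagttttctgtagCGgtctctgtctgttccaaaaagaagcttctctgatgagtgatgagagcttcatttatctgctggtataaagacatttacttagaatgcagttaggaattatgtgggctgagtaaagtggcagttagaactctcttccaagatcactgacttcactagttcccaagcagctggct
Nrg3, chr14:39473039-39473338, minus strand: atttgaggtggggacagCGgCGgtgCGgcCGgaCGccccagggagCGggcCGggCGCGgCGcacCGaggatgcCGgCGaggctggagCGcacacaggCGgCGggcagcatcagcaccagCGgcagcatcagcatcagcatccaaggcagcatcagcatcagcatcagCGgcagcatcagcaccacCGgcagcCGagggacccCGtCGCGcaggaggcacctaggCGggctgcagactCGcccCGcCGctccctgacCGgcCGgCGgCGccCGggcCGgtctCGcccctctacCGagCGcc

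The upper Ntm window, with 2 CG dinucleotides, lay wholly under a LacZ interval at chr9:29412948-29413821. The folds of that interval were 29.2, 10.001 and 10.4 in LacZ replicates 1, 2 and 3. The neighbouring window, with 19 CG dinucleotides clustered near the start site, ended 13 bp from the same LacZ interval. The Gm4665 interval nearest to that pair was 30935 and 30168 bp away. So the only promoter window of the 54 under any interval was under the control list. The Dlg2 window lay 865 bp from a Gm4665 interval with folds of 4.77, 6.46 and 4.49. The Nrg3 window, with 36 CG dinucleotides, lay 1240 bp from an interval with folds of 8.87, 4.08 and 9.05. Across the 54 windows the median CG count was 10, against 7 over all windows, and 98.1% held at least 1 CG, against 94.6% of all windows. On both measures the long genes' windows stood close to windows in general.

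Per Mb, the 36 genes held fewer intervals of either kind than the chromosomes they lie on. With Gm4665 probes their pooled density was 13.0 intervals per Mb, 0.834 times the number their chromosomes would give (exact Poisson 95% interval 0.770 to 0.901). With LacZ probes it was 3.09 per Mb, 0.803 times that number (0.679 to 0.942). The ratio was thus below 1 with both probe sets. These intervals, like all those on densities below, cover counting error only: the authors gave 1 list for each probe set, so a density has no replicates and no test. Among the 36, the Gm4665 density ran over 3.29 to 24.5 per Mb with a median of 13.0. The LacZ density ran over 0 to 10.3 per Mb with a median of 2.32.

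At least 1 Gm4665 interval lay in 36 of the 36 genes, against 35.0% of protein-coding genes of any length and 100% of the 51 other protein-coding genes of this length. At least 1 LacZ interval lay in 34, against 15.4% and 84.3%. Holding an interval is therefore what genes of this length do in these lists. The Gm4665 density exceeded that of the chromosome in 9 of the 36 genes, beside 28.2% of protein-coding genes and 25.5% of the other long genes. The LacZ density exceeded it in 12, beside 14.4% and 27.5%. A short gene with no interval cannot exceed its chromosome, so the other long genes are the closer comparison. Of those, 46 lie on autosomes, as the 36 genes do, and their shares were 19.6% with Gm4665 probes and 26.1% with LacZ probes. The shares of the 36 genes were 25% and 33.3%. With Gm4665 probes that was above the 46 autosomal genes but level with the 25.5% of all 51. The shares rest on few genes, and no difference was tested. With the strongest Gm4665 intervals only, as many as the LacZ list holds, 19 genes exceeded their chromosome. The pooled ratio was then 0.956 (0.819 to 1.11), a range that includes 1. Length and strength of the list change together there. Without the 5 genes named earlier for holding the most intervals, 6 of 31 exceeded it with Gm4665 probes and 10 with LacZ probes, and the pooled ratios were 0.798 and 0.80. Ntm, Cdh13, Dab1, Dpp6, Macrod2 and Wwox exceeded it in both lists, and 21 genes were below it in both. Magi2, Gpc6 and Auts2 did so with Gm4665 probes alone, and Nrxn3, Opcml, Cntn4, Tenm2, Rbfox1 and Fhit with LacZ probes alone.

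**Figure D1:**
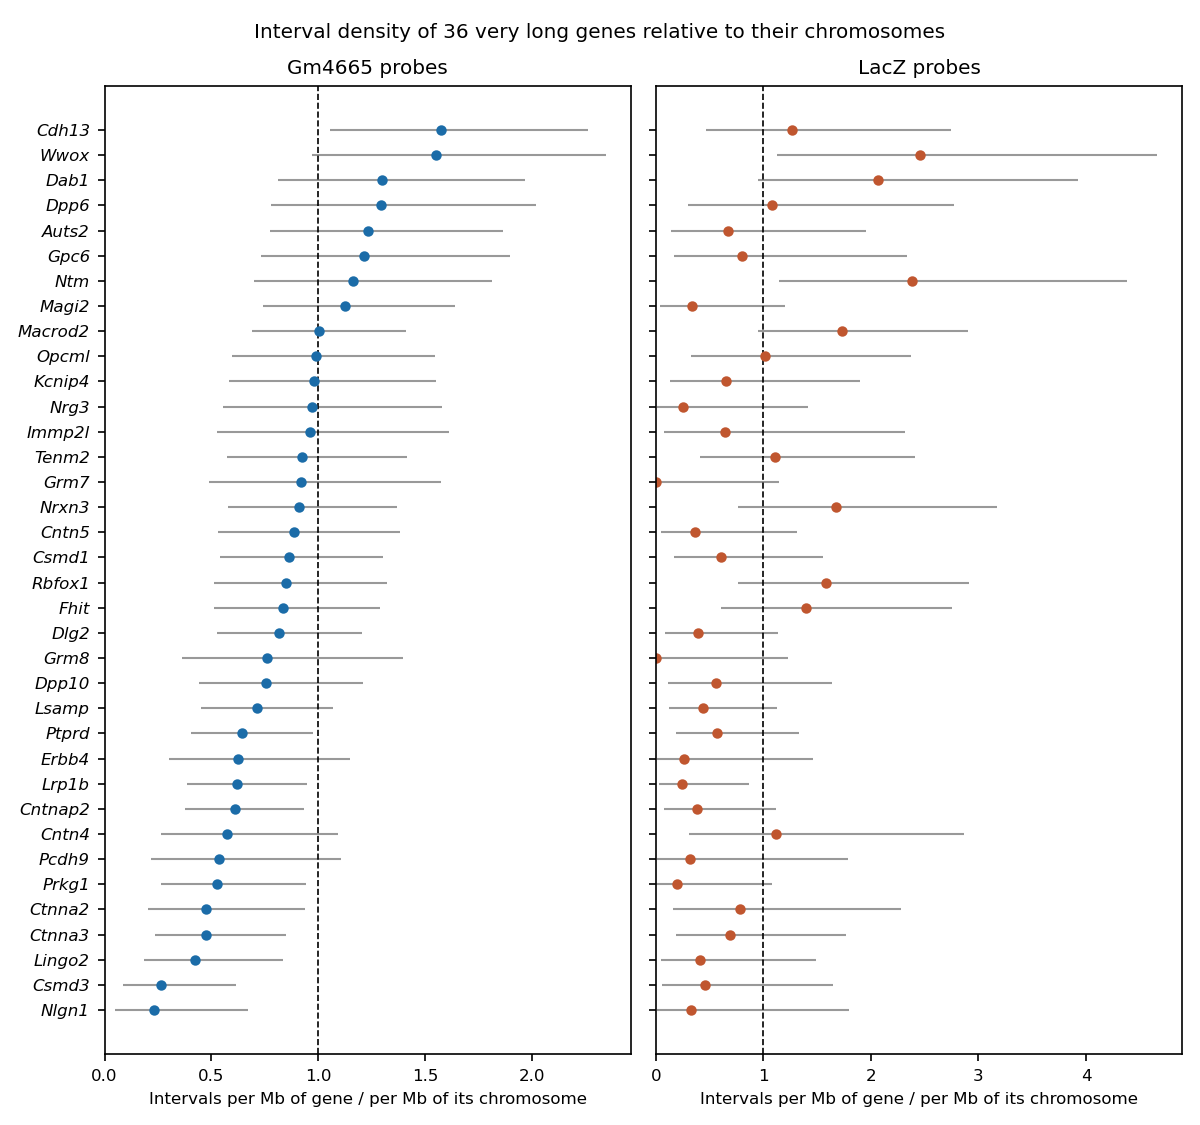
Intervals per Mb of gene over those per Mb of its chromosome (horizontal axis, ratio) for the 36 genes, ordered by the Gm4665 ratio, with Gm4665 probes on the left and LacZ probes on the right; bars are exact 95% Poisson intervals and the dashed line is the chromosome. Cdh13 at 1.58 and Wwox at 1.55 are at the top with Gm4665 probes and Nlgn1 at 0.231 is at the bottom, and most intervals cross 1.

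Genes that were dense with Gm4665 probes tended to be dense with LacZ probes. Across the 36 genes Spearman's rho between the ratios to the chromosome was 0.505 and Pearson's r was 0.562, a description over genes that share libraries and inputs. The 95% interval of the ratio lay wholly above 1 for Cdh13 alone with Gm4665 probes and for Wwox and Ntm with LacZ probes. Cdh13 had been named earlier in these data for holding the most intervals, so its place above 1 is not independent evidence. The intervals of single genes were not corrected for looking at 36 genes. The 95% interval lay wholly below 1 with Gm4665 probes for Nlgn1, Cntnap2, Ptprd, Lingo2, Ctnna2, Ctnna3, Csmd3, Lrp1b and Prkg1. With LacZ probes it did so for Lrp1b alone. How many other long genes lay wholly above or below 1 was not counted, so no background share stands beside these genes. Single ratios of the 51 other long genes ran over 0.282 to 1.37 with Gm4665 probes and 0 to 2.02 with LacZ probes. In the 36 they ran over 0.231 to 1.58 and 0 to 2.45. Low ratios were thus not particular to the 36 genes. Counts of the 36 genes lay further from the number expected at their chromosomes' density than counting error alone gives. The squared distance from that number was 2.46 times the expected with Gm4665 probes and 2.15 times with LacZ probes. For the 51 other long genes these factors were 1.5 and 1.09. The factors include the shortfall that the genes of a set share, so they do not measure the spread among genes alone.

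Interval density tended to be lower in longer genes. Over autosomal protein-coding genes the Gm4665 density was 18.9 per Mb under 20 kb, 17.5 at 20 to 100 kb, 17.7 at 100 to 250 kb, 15.8 at 250 to 500 kb and 15.3 from 500 kb to the length of the shortest of the 36 genes. It was 12.6 per Mb (11.9 to 13.3) in the 82 genes beyond that length and 13.0 per Mb (12.0 to 14.1) in the 36. The LacZ density was 5.91 per Mb under 20 kb, 5.03 at 20 to 100 kb, 4.64 at 100 to 250 kb, 4.55 at 250 to 500 kb and 3.82 from 500 kb to the length of the shortest of the 36 genes. Beyond it the density was 3.01 per Mb (2.68 to 3.38), and in the 36 genes 3.09 per Mb (2.61 to 3.63). That class includes the 36, and its other 46 genes had 12.3 Gm4665 and 2.94 LacZ intervals per Mb, values close to those of the 36. Within the 36, length was weakly related to the ratio: Spearman's rho was -0.196 with Gm4665 probes and 0.0393 with LacZ probes (n = 36 genes).

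**Figure D2:**
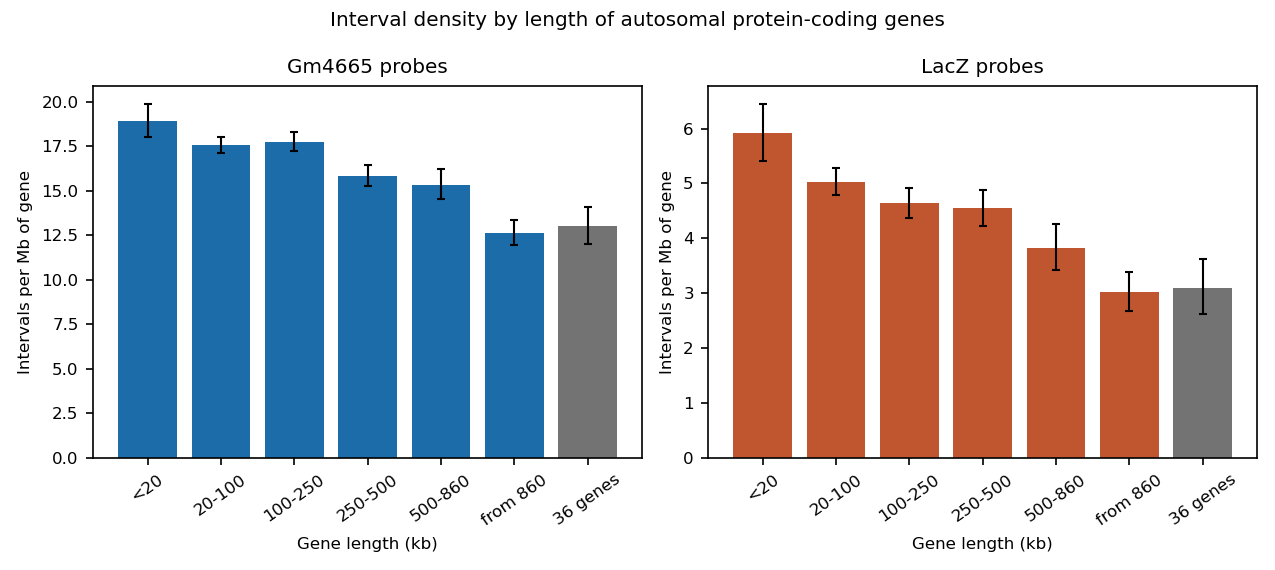
Intervals per Mb of gene (vertical axis) by length class of autosomal protein-coding genes in kb (horizontal axis), for Gm4665 probes and LacZ probes, with the 36 genes as the last grey bar; error bars are exact 95% Poisson intervals. The density is 18.9 and 5.91 per Mb in the shortest class and 13.0 and 3.09 per Mb in the 36 genes.

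The 51 other protein-coding genes of this length, of which 5 lie on X and 3 overlap another of them, held 0.804 times the Gm4665 intervals of their chromosomes (0.743 to 0.868) and 0.767 times the LacZ intervals (0.649 to 0.900). These ranges overlap those of the 36 genes in both lists. All 68 listed close relatives of the 36, most of them shorter, were found, and together they held 0.913 times (0.814 to 1.02) and 1.17 times (0.944 to 1.43) the intervals of their chromosomes. A Gm4665 interval lay in 50 of the 68, beside 35.0% of all protein-coding genes, and a LacZ interval in 36, beside 15.4%. These shares were not matched for gene length. Ctnna1, a far shorter relative of Ctnna2 and Ctnna3, held no interval in either list, and neither did the neuroligin genes Nlgn2 and Nlgn3. Ctnna1 spans 136 kb, Nlgn2 14.7 kb and Nlgn3 22.2 kb. Genes of these sizes hold few intervals by length, so their densities are coarse, least so for Ctnna1.

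Synaptic organisers, the surface proteins that pair nerve terminals with their targets, had the lowest Gm4665 ratio of the 9 role groups. Nrxn3, Nlgn1, Cntnap2, Ptprd and Lingo2 held 77 Gm4665 intervals, 0.613 (0.484 to 0.766) times those of their chromosomes, and 20 LacZ intervals, 0.667 (0.408 to 1.03) times. All 5 were below their chromosomes with Gm4665 probes. Nlgn1 (chr3:25421808-26332866), a postsynaptic partner of neurexins, held 3 Gm4665 intervals, or 3.29 per Mb, against 14.3 per Mb on chromosome 3, and its LacZ density was 1.10 per Mb. It had the lowest Gm4665 density of the 36, from 3 intervals, with a 95% interval of 0.679 to 9.62 per Mb. Their median folds were 17.0, 12.6 and 14.0 in replicates 1, 2 and 3, above the list medians of 11.4, 8.5 and 10.3. Lingo2 (chr4:35696778-36951744), a leucine-rich-repeat surface protein, held 8 Gm4665 intervals, or 6.37 per Mb, against 15.1 per Mb on chromosome 4, and its LacZ density was 1.59 per Mb. Its median folds, 7.84, 5.63 and 7.61, were below the list medians in all 3 replicates.

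Nrxn3 was the densest of that group. Nrxn3 (chr12:88722701-90334935), a presynaptic receptor, held 23 Gm4665 intervals, or 14.3 per Mb, against 15.7 per Mb on chromosome 12, and its LacZ density was 5.58 per Mb. Median folds of its Gm4665 intervals were 19.4, 11.2 and 18.5. Divided by the list medians and averaged over the 3 replicates, they came to 1.61, the highest of the 36 genes, although Ctnna3, Nlgn1, Lsamp and Erbb4 were higher in replicate 2 and Erbb4 in replicate 3. Cntnap2 (chr6:45060061-47301393), a neurexin-related protein that clusters potassium channels along axons, held 21 Gm4665 intervals, or 9.37 per Mb, against 15.3 per Mb on chromosome 6, and its LacZ density was 1.34 per Mb. Its first 748 kb held no Gm4665 interval, and its strongest interval, at chr6:47013818-47015735, 87.2% of the way along the gene, had folds of 63.1, 49.3 and 61.7 (mean 58.0 ± 7.58, SD, n = 3). Ptprd, a receptor tyrosine phosphatase that organises presynaptic sites, held 22 Gm4665 intervals, or 9.69 per Mb, against 15.1 per Mb on chromosome 4, and 5 LacZ intervals. From its lower to its upper coordinate, the 5 equal stretches of Ptprd held 9, 7, 3, 2 and 1 Gm4665 intervals, so they thinned toward the upper end, where the longest empty stretch was 575 kb.

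Immunoglobulin-domain adhesion proteins, anchored in or to the membrane, ranged over 0.575 to 1.16 times the density of their chromosomes with Gm4665 probes and 0.363 to 2.38 times with LacZ probes. Lsamp, Opcml, Ntm, Cntn4 and Cntn5 held 89 Gm4665 intervals, 0.848 (0.681 to 1.04) times those of their chromosomes, and 25 LacZ intervals, 0.916 (0.593 to 1.35) times. Ntm (chr9:28994749-29963269), which lies next to Opcml on chromosome 9 and is named above, held 19 Gm4665 intervals, or 19.6 per Mb, against 16.9 per Mb on chromosome 9, and its LacZ density was 10.3 per Mb. It was among the 5 densest genes with Gm4665 probes and the densest with LacZ probes, where its 95% interval was 4.95 to 19 per Mb. The median folds of its 10 LacZ intervals were 24.4, 7.65 and 9.15. Opcml (chr9:27790716-28925410), a related adhesion protein, held 19 Gm4665 intervals, or 16.7 per Mb, against 16.9 per Mb on chromosome 9, and its LacZ density was 4.41 per Mb. An interval at chr9:28448446-28450120, 58.0% along Opcml, had folds of 61.0, 38.8 and 48.3 (mean 49.4 ± 11.2, SD, n = 3). The LacZ density of Ntm was over that of its neighbour Opcml, but the 95% interval of Opcml, 1.43 to 10.3 per Mb, overlapped that of Ntm.

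Lsamp (chr16:39984254-42181679), an adhesion protein of the limbic system, held 23 Gm4665 intervals, or 10.5 per Mb, against 14.7 per Mb on chromosome 16, and its LacZ density was 1.82 per Mb. Its LacZ intervals numbered 4, and its Gm4665 folds had medians of 12.3, 11.6 and 14.0, above the list medians in all 3 replicates. Cntn4 (chr6:105677632-106700141), a contactin, which guides axons, held 9 Gm4665 intervals, or 8.80 per Mb, against 15.3 per Mb on chromosome 6, and its LacZ density was 3.91 per Mb. The strongest Gm4665 interval of Cntn4, at chr6:106521567-106522808, had folds of 42.3, 33.7 and 54.3 (mean 43.4 ± 10.4, SD, n = 3). Cntn5, another contactin, had 15.0 per Mb with Gm4665 probes and 1.57 per Mb with LacZ probes. Both contactins were below chromosome 6 or 9 with Gm4665 probes, and Cntn4 alone was above with LacZ probes.

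Cadherins and catenins, which join cells and link the junctions to actin, had Gm4665 ratios of 0.474 to 1.58. Cdh13, Pcdh9, Ctnna2 and Ctnna3 had 55 Gm4665 intervals, 0.770 (0.580 to 1.00) times those of their chromosomes, and 14 LacZ intervals, 0.799 (0.437 to 1.34) times. Cdh13 (chr8:118140017-119324929), a cadherin held to the membrane by a lipid anchor, held 29 Gm4665 intervals, or 24.5 per Mb, against 15.5 per Mb on chromosome 8, and its LacZ density was 5.06 per Mb. It was the densest of the 36 with Gm4665 probes, with a 95% interval of 16.4 to 35.1 per Mb, and the 1 Mb on either side of it held 23 Gm4665 intervals per Mb. The interval at chr8:119294872-119296764, 97.5% along the span, had folds of 87.0, 58.2 and 59.5 (mean 68.2 ± 16.2, SD, n = 3). Over its 29 intervals the median folds were 11.6, 8.01 and 9.05, above the list median in replicate 1 and below it in replicates 2 and 3. Cdh13 was therefore rich in intervals whose typical strength was ordinary.

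Ctnna2 (chr6:76881637-77979815), a neuronal alpha-catenin, held 8 Gm4665 intervals, or 7.28 per Mb, against 15.3 per Mb on chromosome 6, and its LacZ density was 2.73 per Mb. Ctnna3 (chr10:63430098-65003667), an alpha-catenin best known from heart, held 11 Gm4665 intervals, or 6.99 per Mb, against 14.7 per Mb on chromosome 10, and its LacZ density was 2.54 per Mb. Both were among the 5 sparsest genes with Gm4665 probes. The few intervals of Ctnna3 were strong, with median folds of 15.8, 13.3 and 17.7 and a strongest interval at chr10:64051599-64053237 with folds of 42.6, 41.5 and 45.2 (mean 43.1 ± 1.91, SD, n = 3). The median folds of Ctnna2 were 9.65, 8.84 and 10.7. Pcdh9, a protocadherin, had 7.96 per Mb with Gm4665 probes and 1.14 per Mb with LacZ probes, below chromosome 14 in both lists.

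The scaffolds Magi2 and Dlg2, multidomain proteins beneath the synaptic membrane, held 52 Gm4665 intervals, 0.952 (0.711 to 1.25) times those of their chromosomes. They held 5 LacZ intervals, 0.363 (0.118 to 0.847) times. Whether the ratios of the lists differ was not tested, since each probe set has 1 list. Magi2 (chr5:19219387-20704792), a synaptic scaffold, held 27 Gm4665 intervals, or 18.2 per Mb, against 16.1 per Mb on chromosome 5, and its LacZ density was 1.35 per Mb. Its median Gm4665 folds, 10.2, 7.48 and 9.85, were below the list medians in all 3 replicates. Of its 27 Gm4665 intervals, 10 lay in the last 20% of the gene, and both of its LacZ intervals lay in the last 40%. Dlg2 (chr7:90476188-92449246), the postsynaptic scaffold whose window is printed above, held 25 Gm4665 intervals, or 12.7 per Mb, against 15.5 per Mb on chromosome 7, and its LacZ density was 1.52 per Mb.

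The very large surface proteins Csmd1, Csmd3, Lrp1b and Tenm2 held 69 Gm4665 intervals, 0.683 (0.531 to 0.864) times those of their chromosomes, and 14 LacZ intervals, 0.566 (0.309 to 0.949) times. Csmd1 (chr8:15892538-17535385), a membrane protein with complement-control domains, held 22 Gm4665 intervals, or 13.4 per Mb, against 15.5 per Mb on chromosome 8, and its LacZ density was 2.43 per Mb. Csmd1 carried the strongest Gm4665 interval of the 36 genes by mean fold, at chr8:16774885-16776868, 53.8% along the span, with folds of 73.0, 64.3 and 68.3 (mean 68.5 ± 4.38, SD, n = 3). Csmd3 (chr15:47580638-48792558), its relative, held 5 Gm4665 intervals, or 4.13 per Mb, against 15.7 per Mb on chromosome 15, and its LacZ density was 1.65 per Mb. The 95% interval of that Gm4665 density was 1.34 to 9.63 per Mb, and its median folds were 10.5, 5.78 and 6.17, below the list medians. The 95% interval of Csmd1, 8.39 to 20.3 per Mb, overlapped it only narrowly. With Gm4665 probes Lrp1b, a giant receptor of the LDL-receptor family, had 10.2 per Mb, against 16.4 per Mb on chromosome 2. With LacZ probes it had 0.972 per Mb, against 4.05 per Mb on chromosome 2, and 1872 kb of it held no LacZ interval. Tenm2, a teneurin that bridges synaptic membranes, had 17.1 per Mb with Gm4665 probes and 4.88 per Mb with LacZ probes.

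Ligands, receptors and their signalling proteins held 101 Gm4665 intervals, 0.892 (0.727 to 1.08) times those of their chromosomes, and 15 LacZ intervals, 0.550 (0.308 to 0.908) times. Among the ligands and co-receptors, Nrg3 (chr14:38365102-39473235), whose product activates Erbb4, held 16 Gm4665 intervals, or 14.4 per Mb, against 14.8 per Mb on chromosome 14, and its LacZ density was 0.902 per Mb. Gpc6 (chr14:116924920-117979529), a heparan sulphate proteoglycan of the cell surface, held 19 Gm4665 intervals, or 18 per Mb, against 14.8 per Mb on chromosome 14, and its LacZ density was 2.84 per Mb. Of these genes, Gpc6 and Dab1 alone exceeded their chromosomes with Gm4665 probes. Erbb4, the receptor tyrosine kinase for neuregulins, held 10 Gm4665 intervals, or 9.29 per Mb, against 14.8 per Mb on chromosome 1, and its LacZ density was 0.929 per Mb. Median folds in Erbb4 were 17.7, 11.4 and 18.7, above the list medians in all 3 replicates.

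Grm7 and Grm8, presynaptic metabotropic glutamate receptors, held 13 and 10 Gm4665 intervals, or 14.1 per Mb and 11.6 per Mb, and no LacZ interval. A count of 0 allows up to 3.25 LacZ intervals per Mb in Grm7 and 3.49 in Grm8, taken as 3 counts, just under the 3.50 per Mb of chromosome 6. The upper bounds of the exact 95% Poisson intervals used for the other densities were 4.0 and 4.29 per Mb, above that of the chromosome. The strongest interval of Grm8 (chr6:27275121-28135146), at chr6:28120220-28121955, 1.63% along the gene from its start, had folds of 52.8, 54.8 and 62.9 (mean 56.8 ± 5.35, SD, n = 3). A stretch of 426 kb with no Gm4665 interval ran over 17.9% to 67.4% of the gene. Dab1 (chr4:103619500-104744844), the adaptor that carries the reelin signal, held 22 Gm4665 intervals, or 19.5 per Mb, against 15.1 per Mb on chromosome 4, and its LacZ density was 8.0 per Mb. Dab1 was high in both lists, and its median Gm4665 folds were 18.1, 11.1 and 14.8, above the list medians in all 3 replicates. Its strongest interval, at chr4:104209077-104210857, had folds of 55.2, 43.9 and 36.2 (mean 45.1 ± 9.56, SD, n = 3). Prkg1, a cGMP-dependent kinase, held 11 Gm4665 intervals, or 9.16 per Mb, against 17.4 per Mb on chromosome 19, and its LacZ density was 0.833 per Mb.

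Partners of voltage-gated potassium channels held 54 Gm4665 intervals, 0.973 (0.731 to 1.27) times those of their chromosomes, and 10 LacZ intervals, 0.732 (0.351 to 1.35) times. Dpp6 (chr5:26817357-27727500), a channel-associated protein related to dipeptidyl peptidases, held 19 Gm4665 intervals, or 20.9 per Mb, against 16.1 per Mb on chromosome 5, and its LacZ density was 4.39 per Mb. Its 95% interval was 12.6 to 32.6 per Mb and its median folds were 12.6, 9.52 and 10.4. Dpp10 (chr1:123332138-124845815), its relative, held 17 Gm4665 intervals, or 11.2 per Mb, against 14.8 per Mb on chromosome 1, and its LacZ density was 1.98 per Mb. The strongest Gm4665 interval of Dpp10, at chr1:123610703-123612494, 81.5% along the gene, had folds of 57.3, 46.6 and 57.6 (mean 53.8 ± 6.26, SD, n = 3), and the 279 kb beyond it held none. Kcnip4 (chr5:48389503-49525122), a calcium sensor that binds such channels, held 18 Gm4665 intervals, or 15.9 per Mb, against 16.1 per Mb on chromosome 5, and its LacZ density was 2.64 per Mb. Its median folds, 10.7, 6.49 and 8.36, were below the list medians in all 3 replicates. Dpp6 alone of these genes exceeded its chromosome, and it did so in both lists.

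The nuclear regulators Rbfox1 and Auts2 held 41 Gm4665 intervals, 1.02 (0.731 to 1.38) times those of their chromosomes, and 13 LacZ intervals, 1.2 (0.641 to 2.06) times. Auts2 (chr5:131437333-132543220), a regulator of transcription in the developing brain, held 22 Gm4665 intervals, or 19.9 per Mb, against 16.1 per Mb on chromosome 5, and its LacZ density was 2.71 per Mb. It was among the 5 densest genes with Gm4665 probes but not with LacZ probes, a difference that was not tested. Rbfox1 (chr16:5884793-7412480), a splicing factor, held 19 Gm4665 intervals, or 12.4 per Mb, against 14.7 per Mb on chromosome 16, and its LacZ density was 6.55 per Mb. The median folds of its LacZ intervals were 39.4, 12.0 and 16.7, against LacZ list medians of 23.0, 8.18 and 10.9. Its strongest LacZ interval, at chr16:7038738-7040999, had folds of 63.2, 34.5 and 46.7 (mean 48.1 ± 14.4, SD, n = 3), the highest mean of any LacZ interval in the 36 genes.

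The genes of common fragile sites, enzymes and the mitochondrial protease, Macrod2, Fhit, Wwox and Immp2l, formed the only group above its chromosomes in LacZ density beyond counting error. They held 89 Gm4665 intervals, 1.04 (0.836 to 1.28) times those of their chromosomes, and 33 LacZ intervals, 1.60 (1.10 to 2.25) times. Macrod2 gave 14 of these LacZ intervals and had been named earlier for holding the most intervals, so the excess is not independent of that choice. Single LacZ ratios ran from 0.643 in Immp2l to 2.45 in Wwox, a spread that the pooled range does not cover. Wwox (chr8:114439635-115352712), an oxidoreductase at a fragile site, held 22 Gm4665 intervals, or 24.1 per Mb, against 15.5 per Mb on chromosome 8, and its LacZ density was 9.86 per Mb. It was the second densest in both lists, with 95% intervals of 15.1 to 36.5 per Mb with Gm4665 probes and 4.51 to 18.7 per Mb with LacZ probes. Its median Gm4665 folds were 9.38, 7.99 and 11.1. Macrod2 (chr2:140395303-142392966), an enzyme that removes ADP-ribose from proteins, held 33 Gm4665 intervals, or 16.5 per Mb, against 16.4 per Mb on chromosome 2, and its LacZ density was 7.01 per Mb. Of the 33 Gm4665 intervals, the most in any of the 36 genes, 11 lay in the last 20% of the length. Per Mb, Macrod2 was level with its chromosome with Gm4665 probes and above it with LacZ probes.

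Fhit (chr14:9550092-11162061), a nucleotide hydrolase at a fragile site, held 20 Gm4665 intervals, or 12.4 per Mb, against 14.8 per Mb on chromosome 14, and its LacZ density was 4.96 per Mb. Immp2l (chr12:41024061-41955588), a subunit of the mitochondrial inner membrane protease, held 14 Gm4665 intervals, or 15.0 per Mb, against 15.7 per Mb on chromosome 12, and its LacZ density was 2.15 per Mb. In Immp2l the interval at chr12:41723832-41725939, 75.2% along the gene, had folds of 61.9, 37.6 and 69.9 (mean 56.5 ± 16.9, SD, n = 3). The median folds of Immp2l were 18.1, 10.4 and 14.4 and those of Fhit were 12.1, 9.01 and 12.1, above the Gm4665 list medians in all 3 replicates for both genes.

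Intervals were spread along the genes and were not gathered at their ends. The first and last 20% of each gene, 40% of its length, held 41.3% of the Gm4665 intervals (exact binomial 95% interval 37.4 to 45.3%) and 39.6% of the LacZ intervals (31.7 to 47.9%). In the 28 genes whose strand is known, the 50% of the length nearest the start held 46.7% of 465 Gm4665 intervals (42.1 to 51.3%) and 40.9% of 115 LacZ intervals (31.8 to 50.4%). In the same genes the first 20% held 17.4% of the Gm4665 intervals (14.1 to 21.2%) and the last 20% held 23.4% (19.7 to 27.6%). With LacZ probes these shares were 19.1% (12.4 to 27.5%) and 18.3% (11.7 to 26.5%). All of these ranges include the share of length. Empty stretches were long, with a median longest gap of 257 kb with Gm4665 probes and 585 kb with LacZ probes. Other annotated genes wholly inside the 36, numbering 147, cover 4.22% of their length, and they held 3.83% of the Gm4665 intervals (2.47 to 5.64%) and 2.68% of the LacZ intervals (0.736 to 6.73%).

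**Figure D3:**
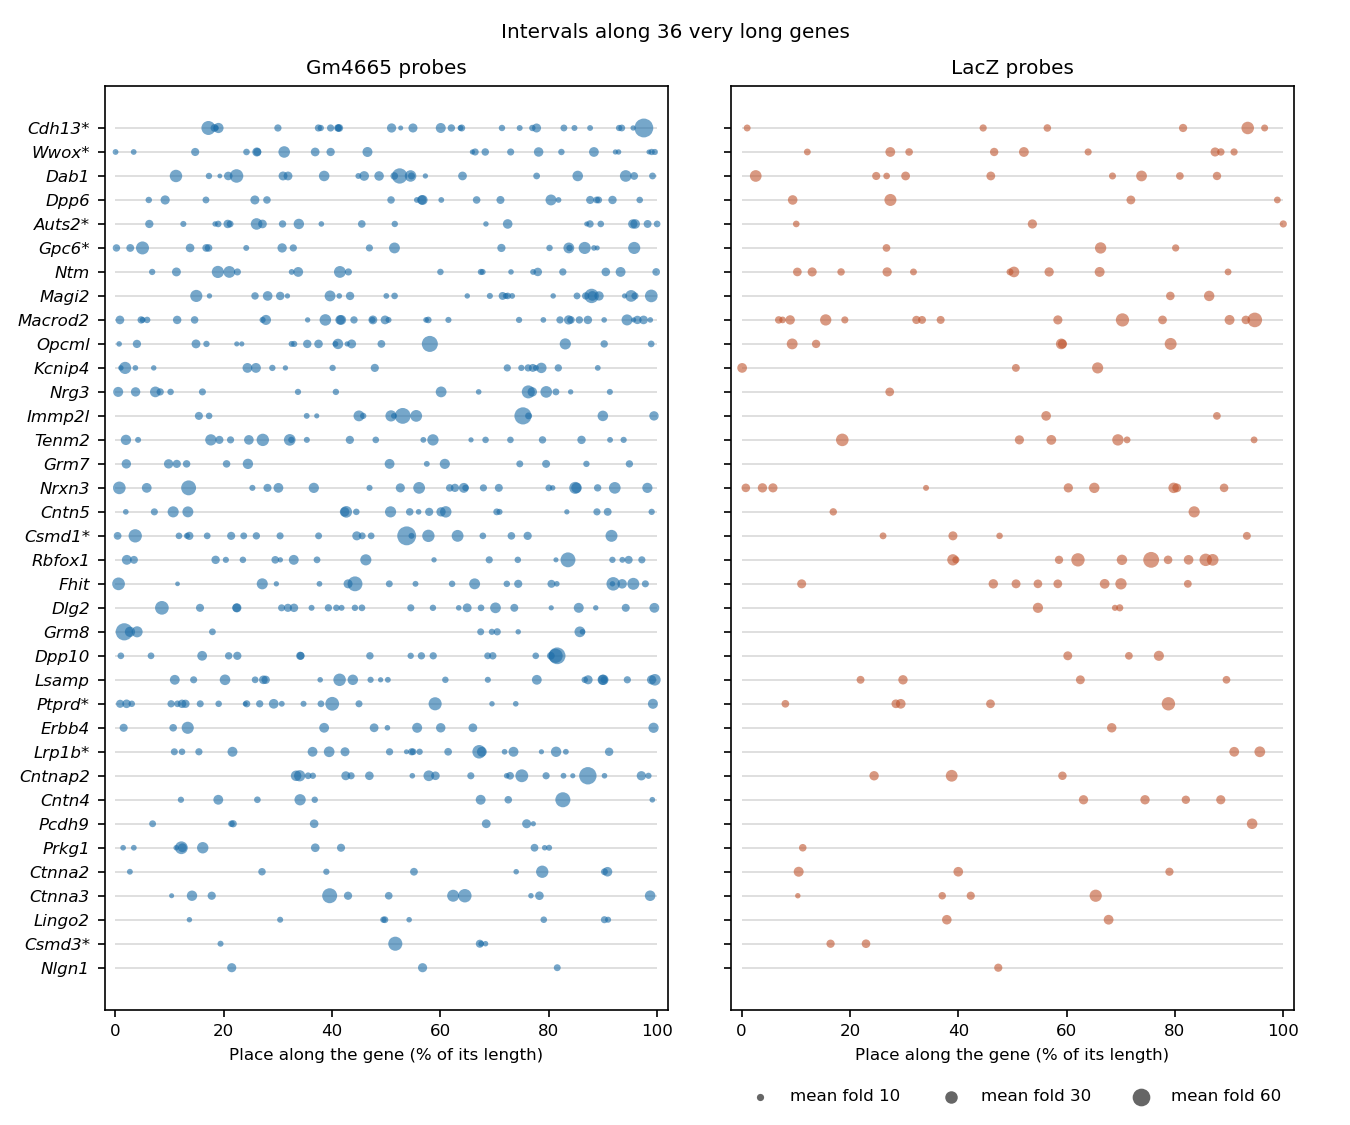
Place of every interval along the 36 genes, in percent of gene length from the annotated start (horizontal axis), with the genes in the same order as in the density plot and Gm4665 probes left of LacZ probes; dot area grows with the mean fold of 3 replicates, and an asterisk marks genes measured from the lower coordinate because their strand is not in the promoter table. Dots fill the whole length, apart from gaps such as the first 748 kb of Cntnap2.

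Within 2 kb of an annotated end, inside or outside the gene, a Gm4665 interval lay in 9 of the 36 genes, beside 14.2% of all protein-coding genes, and a LacZ interval in 2, beside 4.78%. Nrg3 was the only gene of the 9 where the end was known to be the start. That interval lay 1343 bp outside it, at chr14:39474578-39474959, with folds of 8.87, 4.08 and 9.05, below the Gm4665 list median in every replicate. At the 3′ end, the strongest was 899 bp beyond Lsamp, at chr16:42182578-42183126, with folds of 23.4, 17.3 and 19.7. Other 3′ ends had weaker intervals: 13.7, 10.8 and 9.63 in Ntm, 9.55, 4.37 and 7.25 at Nlgn1, 8.18, 5.78 and 3.84 at Dpp6 and 9.21, 7.48 and 6.99 at Fhit. For Gpc6, Auts2 and Wwox the table gave no strand. Gpc6 had an interval at both ends, with folds of 12.6, 7.35 and 11.9 at the lower end and 14.3, 11.6 and 9.84 at the upper. An interval 76 bp inside the lower end of Wwox had folds of 7.59, 4.80 and 7.08. With LacZ probes, an interval 747 bp inside the start of Kcnip4 had folds of 34.3, 10.1 and 10.4.

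The upper end of Auts2 lay under an interval of each list. The Gm4665 interval, at chr5:132542932-132543319, had folds of 7.01, 7.22 and 11.9, and the LacZ interval, at chr5:132542821-132543567, had 11.9, 8.05 and 9.80. The Gm4665 interval was wholly covered by the LacZ interval. Intervals of both lists overlapped at 6 places, in Nrxn3, Cdh13, Ctnna3, Gpc6, Auts2 and Wwox. They were 0.957% of the genes' Gm4665 intervals, beside 0.889% of the whole list, and 4.03% of their LacZ intervals, beside 3.65% of the whole list. The shares in these genes were thus close to those of the lists. At Nrxn3 the Gm4665 folds were 23.5, 12.9 and 18.5 and the LacZ folds were 29.2, 7.27 and 11.5. At Wwox they were 18.4, 17.7 and 21.4 with Gm4665 probes and 22.6, 8.45 and 9.23 with LacZ probes. At Cdh13 the Gm4665 folds, 7.87, 9.52 and 9.87, stood under a LacZ interval with 44.8, 18.7 and 27.1, the strongest LacZ interval in that gene. The Gm4665 interval at Cdh13 lay wholly within the LacZ interval. At Ctnna3 the Gm4665 folds were 4.17, 6.31 and 4.12 and the LacZ folds were 6.75, 3.59 and 6.65. At Gpc6 they were 6.21, 12.2 and 5.53 with Gm4665 probes and 13.3, 4.63 and 12.4 with LacZ probes. The lists were normalized separately, so a fold in the Gm4665 list and a fold in the LacZ list are not amounts of DNA on the same scale.

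The strength of intervals in the 36 genes was close to that of the rest of each list. Their median fold over that of all other intervals with Gm4665 probes was 1.06, 1.00 and 1.12 in replicates 1, 2 and 3 (mean 1.06 ± 0.0601, SD, n = 3), and 1.08, 1.06 and 0.95 with LacZ probes (mean 1.03 ± 0.0709, SD, n = 3). The replicates overlapped, and the difference of 0.0285 was not significant (exact permutation test over the 6 libraries, two-sided, p = 0.6). It was 0.0558 without LacZ replicate 1, and its direction turned without Gm4665 replicate 3 (-0.00224) or LacZ replicate 3 (-0.0116). Intervals in the first and last 20% of the genes over those between them had a median fold ratio of 1.01, 1.04 and 1.04 with Gm4665 probes (mean 1.03 ± 0.0145, SD, n = 3). With LacZ probes it was 0.969, 1 and 0.895 (mean 0.955 ± 0.0541, SD, n = 3). Here the replicates did not overlap, and the difference of 0.0749 gave an exact permutation p of 0.1, two-sided, the smallest that 3 against 3 libraries allow, so significance could not be reached. Without the 5 genes that had been named earlier for holding the most intervals, the means were 0.952 with Gm4665 probes and 0.931 with LacZ probes, and the difference was 0.0212 (exact permutation p = 0.7). Without LacZ replicate 1 the difference over all 36 genes was 0.0822.

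Single genes differed in typical strength, as protein-coding genes did in general. The median Gm4665 fold of a gene was above the list median in all 3 replicates in 13 of the 36 genes, beside 35.8% of protein-coding genes with at least 3 intervals, and below it in all 3 in 4, beside 29.4%. The 13 were Nrxn3, Nlgn1, Lsamp, Cntn4, Ctnna3, Lrp1b, Erbb4, Grm7, Dab1, Dpp6, Dpp10, Fhit and Immp2l, and the 4 were Lingo2, Magi2, Csmd3 and Kcnip4. Of the 23 genes with at least 3 LacZ intervals, 7 were above the LacZ medians in all 3 replicates, beside 30.7%, and 4 below, beside 24.0%. The counts above the medians were thus close to the shares of protein-coding genes in both lists. The count below was under that share with Gm4665 probes and near it with LacZ probes, and neither was tested. The protein-coding genes were not matched to the 36 in number of intervals. Dpp6 and Fhit were above the medians in both lists. Folds of a replicate fall on a grid of steps, so many medians tie. The median width was 583 bp in the genes and 582 bp elsewhere with Gm4665 probes, and 874 and 843 bp with LacZ probes.

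**Figure D4:**
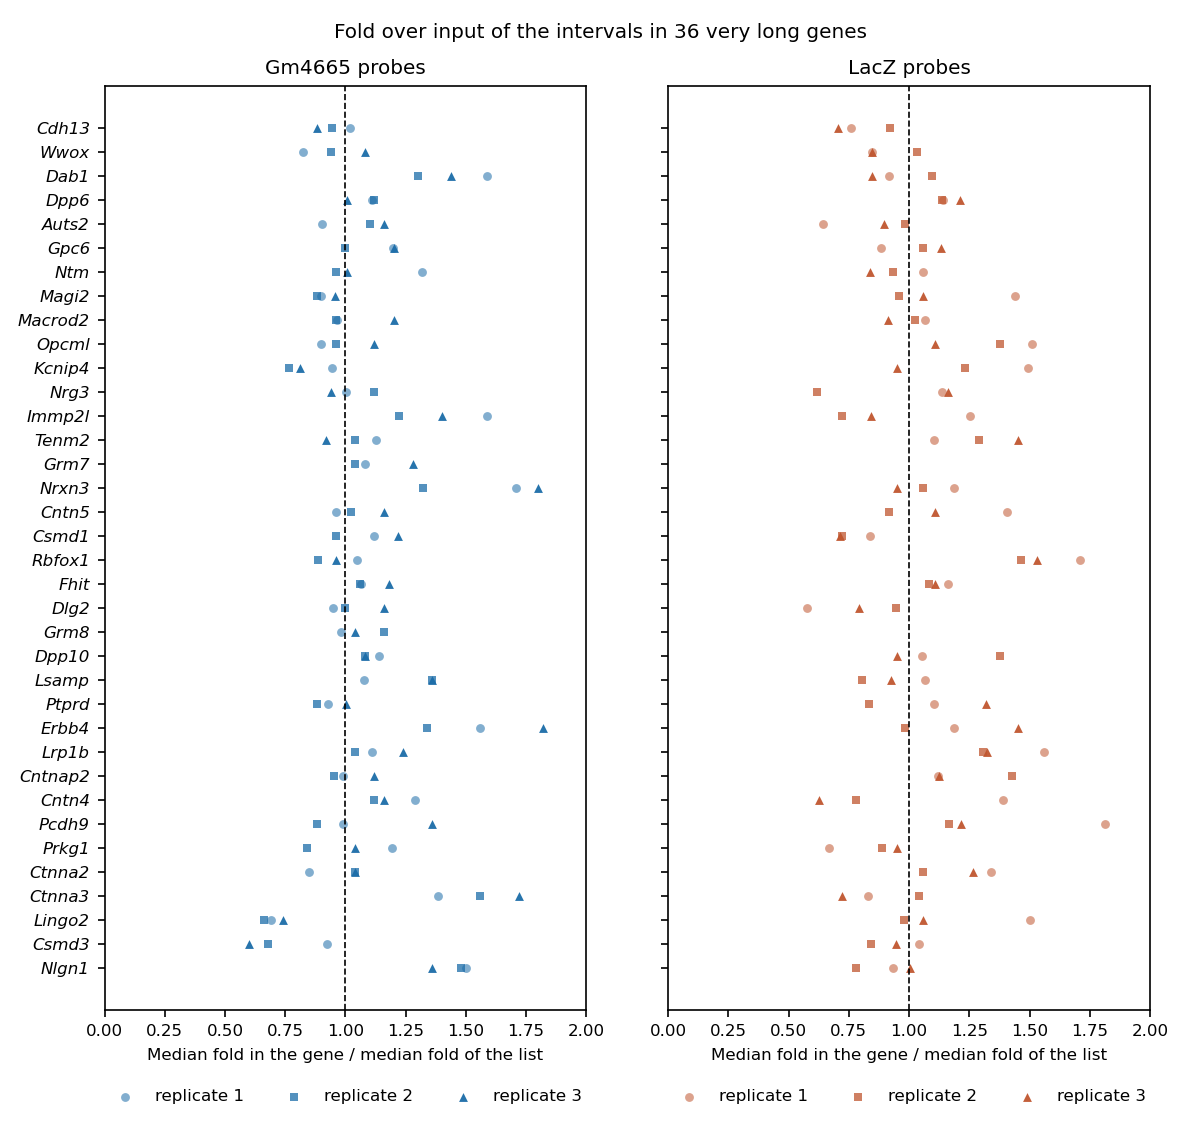
Median fold of a gene's intervals over the median fold of the whole list (horizontal axis, ratio) for each replicate, with the genes in the order of the density plot and Gm4665 probes left of LacZ probes; each marker is 1 replicate, and genes with no LacZ interval have no marker. Nrxn3, Erbb4 and Ctnna3 lie to the right of the dashed line at 1 in all 3 Gm4665 replicates, and Lingo2 and Csmd3 lie to its left.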

How the data were processed

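DNA captured with Gm4665 probes, LacZ probes and input was sequenced in 3 replicates each. The deposited peak lists, 1 for each probe set, were made with MACS2, per the file names, on mm10, per the submitters' processing notes; not given in the sources used here were the aligner, the MACS2 version and settings, and how replicates were joined. Per the file headers, each row holds a linear fold enrichment over input for each replicate and a pileup signal, the read coverage at the summit, which was not used. Repeated rows (649 Gm4665, 165 LacZ) were joined, and intervals on other sequences than chromosomes 1 to 19, X and Y were left out. Genes came from RefSeq (GRCm38.p6), without 340 entries that start below 3 Mb.

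Densities were compared with the whole chromosome, with exact Poisson intervals. Folds were compared only as ratios within a list, since lists were normalized separately, by exact permutation tests over 6 libraries. Alternatives covered the overlap rule, gene span, fold filter, list length, chromosome density, repeated rows, members and replicates. The procedure was tested on simulated data. Python 3.11.15, pandas 2.3.3, NumPy 2.4.6 and SciPy 1.17.1 were used.

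The members and lists were chosen with earlier results of these data known: Macrod2, Cdh13, Magi2, Dlg2 and Lsamp had been named for holding the most intervals. Full values are given for the 5 densest and 5 sparsest genes with Gm4665 probes, the 5 densest with LacZ probes, genes with an interval within 2 kb of an end, genes where the lists overlap, and the 10 with the strongest Gm4665 interval by mean fold. Other genes are given by role group.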

Additional observations from a re-analysis of the deposited data

How the results depend on the processing

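Of 75 alternative values, 67 stayed close to the main result. For fold differences this meant the same direction only, without regard to the p-value. Density ratios and shares stayed within the counting error of the main value, and counts of genes within 1.5 times of the main count. The Gm4665 density ratio ran over 0.781 to 0.956 and the LacZ ratio over 0.668 to 0.957, so both were below 1 under every alternative run. With the Gm4665 list cut to the length of the LacZ list, the Gm4665 ratio was 0.956 (0.819 to 1.11), which includes 1. Then 19 genes exceeded their chromosome, against a ratio of 0.834 and 9 genes in the whole list. No such value exists for the LacZ list. Against the 1 Mb on either side of each gene, a comparison chosen after seeing the data, the Gm4665 ratio was 0.911 (0.841 to 0.985) and 17 genes were above. The LacZ ratio there was 0.936 (0.792 to 1.10), which includes 1, and 14 genes were above. The LacZ ratio was 0.668 (0.565 to 0.785) against the protein-coding genes of the chromosome. Against the chromosome outside all genes it was 0.957 (0.809 to 1.12), which includes 1. The cause was not tested.

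For the median fold in the genes over the rest of the list, the difference of Gm4665 from LacZ probes was -0.0116 to 0.0578 when each replicate was left out; it was -0.00224 without Gm4665 replicate 3 and -0.0116 without LacZ replicate 3. For the outer against the inner parts of the genes it was 0.0450 to 0.0976. With the replicate number as a block, these differences, 0.0285 and 0.0749, had exact sign-flip p-values of 1 and 0.25, and 0.25 is the smallest 3 pairs allow. Over 344 shared intervals the same-numbered libraries correlated at -0.0352, -0.0255 and -0.00884, so the numbers were not taken to pair the samples. Densities cannot be recomputed without a replicate, and library depth, which limits how many intervals could be listed, is unknown.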

Other observations

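Pooled over the 36 genes, intervals were somewhat denser around the genes than inside them, but single genes went both ways. The 1 Mb on either side of the 36 genes held 14.5 Gm4665 intervals per Mb, beside 13.0 per Mb inside, and 3.35 LacZ intervals per Mb, beside 3.09 inside. Across the 36 genes, Spearman's rho between the density of a gene and that of its surroundings was 0.613 with Gm4665 probes and 0.366 with LacZ probes, a description over genes that share libraries and neighbourhoods. Inside was denser than outside in 17 of the 36 genes with Gm4665 probes and in 14 with LacZ probes. Opcml and Ntm lie next to each other, so each is part of the other's surroundings. Among close relatives, Lrp1, a receptor of the same family as Lrp1b, held 5 LacZ intervals, or 60.2 per Mb, and 3 Gm4665 intervals, or 36.1 per Mb, in a gene of 83.0 kb.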
